A study of Homo sapiens with 12 samples.

Results

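The human genes that encode ligands of NKG2D were examined in the RNA of 2 cholangiocarcinoma cell lines. They were taken by symbol and comprise MICA, MICB, ULBP1, ULBP2, ULBP3, RAET1E, RAET1G and RAET1L, which are 8 of the 60651 genes in the count table. All 8 were present under 1 Ensembl identifier each. EGI-1, an established bile duct cancer line, was cultured for 72 h with DMSO vehicle, 0.5 μM decitabine, 200 nM talazoparib or the combination of both at these doses. HUCCT1, another established bile duct cancer line, was cultured for 72 h with vehicle or 1 μM decitabine. Each of the 6 conditions had 2 libraries, giving 12 in all. Decitabine is an inhibitor of DNA methyltransferases, and talazoparib is an inhibitor of PARP enzymes. The study combined them to ask whether PARP inhibition adds to the action of decitabine in this cancer, and it also stained MICA and MICB protein on the cell surface, which was not analysed here.

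NKG2D is an activating receptor of natural killer cells, CD8 T cells and γδ T cells, encoded by KLRK1. Its ligands resemble the heavy chain of MHC class I molecules but present no peptide, and they are known to appear on cells under stress, after DNA damage or upon transformation. MICA and MICB lie inside the major histocompatibility complex (MHC) on the short arm of chromosome 6, whereas the ULBP and RAET1 genes form a separate cluster on its long arm. ULBP1, ULBP2, ULBP3 and the RAET1L product are held in the membrane by a lipid anchor, and the RAET1E product spans the membrane. Cells can also shed these ligands through metalloproteases, so that transcript and surface protein need not move together.

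On GRCh38, the members of the cluster lay within chr6:149883179-150069121, a span of 185.9 kb. ULBP2 (ENSG00000131015.5, plus strand) occupied chr6:149942014-149949235 and ULBP1 (ENSG00000111981.5, plus strand) occupied chr6:149963943-149973715. ULBP3 (ENSG00000131019.11, minus strand) lay at chr6:150061053-150069121 and RAET1L (ENSG00000155918.8, minus strand) at chr6:150018334-150025532. RAET1E (ENSG00000164520.11) at chr6:149883179-149898113 and RAET1G (ENSG00000203722.8) at chr6:149916878-149923121 are both on the minus strand and overlap the antisense gene RAET1E-AS1. RAET1E also overlaps ENSG00000285991 on its own strand. MICA (ENSG00000204520.14, chr6:31399784-31415315) and MICB (ENSG00000204516.10, chr6:31494881-31511124) are on the plus strand. Positions are those of GENCODE, matched by identifier.

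The promoters of 4 members are shown because decitabine acts on methylated CpG sites and these members cover the responses described below. They are a gene that rose in both lines and one that did not pass any treatment test. The others are one with no reads in untreated HUCCT1 and one with higher counts after decitabine in HUCCT1. Each sequence runs 5′ to 3′ on the gene's own strand, from 250 bases before to 50 bases after the RefSeq start on GRCh38.p14, with CpG dinucleotides in capitals. The ULBP2 window is chr6:149941764-149942063, that of ULBP3 is chr6:150069072-150069371, that of ULBP1 is chr6:149963693-149963992 and that of RAET1L is chr6:150025483-150025782.
ULBP2: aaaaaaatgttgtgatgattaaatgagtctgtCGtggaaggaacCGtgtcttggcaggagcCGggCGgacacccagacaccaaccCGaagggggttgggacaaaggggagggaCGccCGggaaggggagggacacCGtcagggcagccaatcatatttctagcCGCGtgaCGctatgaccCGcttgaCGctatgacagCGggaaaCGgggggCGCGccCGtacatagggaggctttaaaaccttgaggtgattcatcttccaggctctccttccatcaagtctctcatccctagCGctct
ULBP3: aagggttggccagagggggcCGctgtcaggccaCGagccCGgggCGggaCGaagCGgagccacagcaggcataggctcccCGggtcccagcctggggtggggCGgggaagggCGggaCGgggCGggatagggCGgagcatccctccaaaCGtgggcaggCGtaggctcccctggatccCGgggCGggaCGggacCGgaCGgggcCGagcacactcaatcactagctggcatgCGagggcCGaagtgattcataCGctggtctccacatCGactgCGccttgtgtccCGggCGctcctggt
ULBP1: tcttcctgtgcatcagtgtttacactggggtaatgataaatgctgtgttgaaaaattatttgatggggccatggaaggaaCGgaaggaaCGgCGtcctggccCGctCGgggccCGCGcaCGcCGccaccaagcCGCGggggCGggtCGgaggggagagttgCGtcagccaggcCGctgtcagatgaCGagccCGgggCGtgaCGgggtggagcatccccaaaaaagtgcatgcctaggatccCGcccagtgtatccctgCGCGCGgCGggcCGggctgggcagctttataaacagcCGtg
RAET1L: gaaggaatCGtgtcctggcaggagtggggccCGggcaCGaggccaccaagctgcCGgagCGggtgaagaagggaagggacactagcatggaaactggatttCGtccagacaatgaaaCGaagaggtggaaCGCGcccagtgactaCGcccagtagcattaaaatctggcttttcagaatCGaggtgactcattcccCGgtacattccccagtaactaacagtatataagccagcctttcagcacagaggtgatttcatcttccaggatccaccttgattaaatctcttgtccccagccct

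The number of CpG sites differed several-fold among the members. The ULBP3 window held 27 and the ULBP1 window 26, against 19 in ULBP2, 12 in RAET1L, 10 in RAET1G and 6 in RAET1E. The MICA and MICB windows held 21 and 20. Across 35116 RefSeq promoters of the same length the median was 14, with quartiles of 4 and 28, so every member lay inside the middle range. DNA methylation at these windows was not measured in these data.

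Short motifs were searched on both strands: GGGCGG (the GC box, bound by SP1 and SP3), CCAAT (bound by NF-Y), TGACTCA (AP-1), TGACGTCA (the cyclic AMP response element) and GCGGGAA (an E2F-type site). ULBP3 held 6 GC boxes, ULBP1 held 2, and ULBP2, RAET1G, MICA and MICB held 1 each, a motif present in 45.0% of all promoters. CCAAT, present in 34.6% of promoters, occurred once in ULBP2, RAET1G and MICB and was found 2 times in MICA and RAET1E. ULBP2 alone among the members held GCGGGAA (6.55% of promoters), and RAET1L alone held TGACTCA (4.95%). TGACGTCA was in none of the 8 windows and in 1.85% of all promoters. No match overlapped another, and each is a match of letters only.

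Total counts per library ranged from 23139065 to 34965627. Both lines carried the RNA of bile duct epithelium, with KRT19 at 38040 to 92840 counts and KRT8 at 70082 to 169656, while 4 of 5 hepatocyte markers averaged under 10 counts and SERPINA1, the other one, had 506 to 3381. KRT7, a further biliary keratin, was at 129181 counts or more in each HUCCT1 library and at 1946 or fewer in each EGI-1 library. One library stood apart: in EGI-1 combination replicate 2 the 14 markers of natural killer and T cells summed to 796 counts, against 19 to 43 in the other 7 EGI-1 libraries. PTPRC, the pan-leukocyte phosphatase, had 381 counts there and 1 to 7 in the other EGI-1 libraries, and CD3E had 148, while NCR1 had 0 in every library. In HUCCT1 the same 14 markers summed to 23 counts in each vehicle library and to 151 and 178 after decitabine. The part of these transcripts in the results was not tested, and values without that library stand beside those of the tested ULBP and RAET1 genes and beside most list counts for the combination against vehicle. In bulk RNA, a change in the share of cells that express a gene and a change in RNA per cell cannot be told apart.

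Most reads assigned to the 8 members fell on ULBP2 and ULBP3. Together they held 79.5% to 87.8% of these reads in every library, and the 8 members summed to 391 to 1060 counts per library. This is no share of all ligand transcripts, since no level is read from the counts of MICA and MICB. Levels of different genes were compared as CPM, the counts scaled to a common library total, divided by the summed exon length in kb. In EGI-1 vehicle, ULBP2 stood at 4.09 ± 0.046 CPM per kb (SD, n = 2), followed by ULBP3 at 1.91 ± 0.13 and ULBP1 at 0.360 ± 0.061. RAET1E at 0.142 ± 0.026 and RAET1G at 0.127 ± 0.0081 CPM per kb did not differ beyond their spread, and RAET1L stood at 0.0888 ± 0.012. RAET1E has annotated exons of 7171 bases in sum, against 1335 for ULBP2, and a library that used a shorter form would place it higher.

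In HUCCT1 vehicle the order began alike, with ULBP2 at 8.93 ± 0.068 and ULBP3 at 3.06 ± 0.22 CPM per kb. RAET1G (0.721 ± 0.20) and RAET1L (0.552 ± 0.47) followed and overlapped, ahead of RAET1E at 0.179 ± 0.0061. ULBP1 had no read in either HUCCT1 vehicle library. The plot of raw counts sets these levels side by side.

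**Figure D1:**
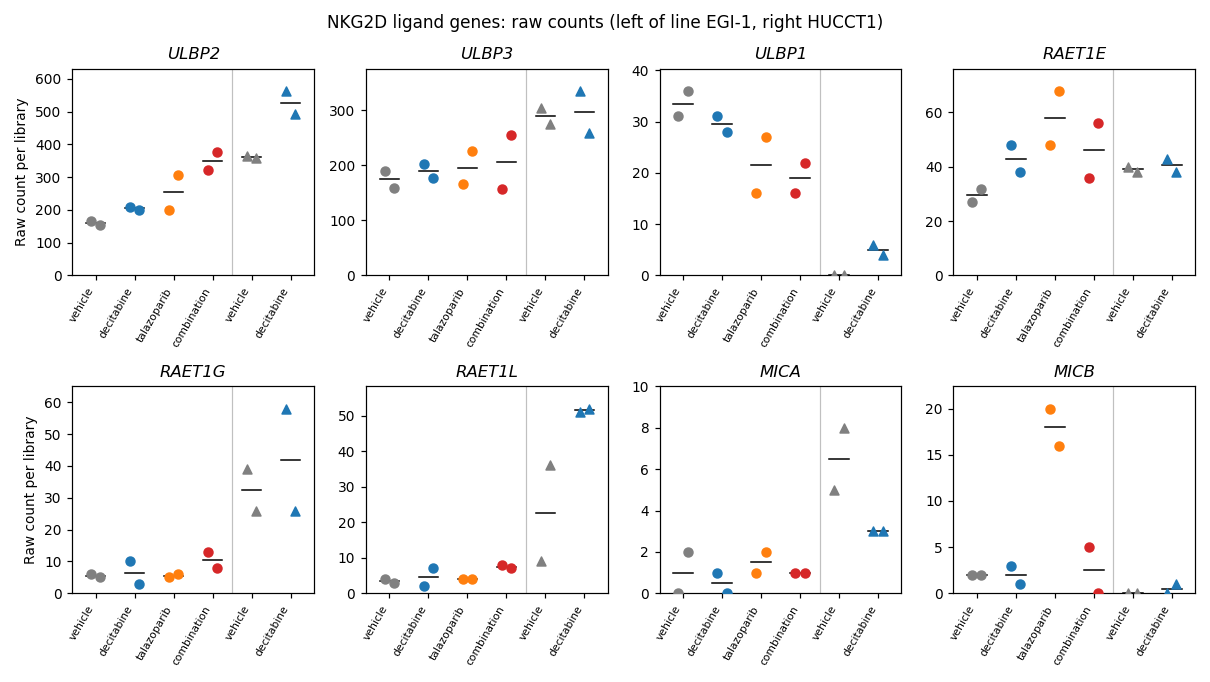
Raw counts of the 8 NKG2D ligand genes, one panel per gene with its own linear axis from 0; each point is a library, circles are EGI-1, triangles are HUCCT1, and the black bar is the mean of 2 libraries. ULBP2 rises from 153 and 165 counts in EGI-1 vehicle to 322 and 378 in the combination, ULBP1 is at 0 in both HUCCT1 vehicle libraries, and MICA never exceeds 8.

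MICA and MICB, the ligands in the MHC, were listed close to 0. MICA had 0 and 2 counts in EGI-1 vehicle, 1 and 0 with decitabine, 1 and 2 with talazoparib, and 1 and 1 with the combination. In HUCCT1 it had 5 and 8 counts with vehicle and 3 and 3 with decitabine. MICB had 0 and 0 counts in HUCCT1 vehicle and 0 and 1 with decitabine. In EGI-1 it had 2 and 2 counts with vehicle, 3 and 1 with decitabine, 20 and 16 with talazoparib, and 5 and 0 with the combination. MICA therefore failed the filter on low counts in every fit, and MICB passed it in EGI-1 only through the talazoparib libraries.

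These low values were shared by most of the MHC. Of 181 protein-coding genes in a stretch of 5 Mb of chromosome 6 that spans the MHC, 155 (85.6%) averaged under 10 counts and 0 reached 1000. On the rest of chromosome 6 the share under 10 counts was 26.0% of 862 genes, and 269 reached 1000. Genes that practically all cells use were among the low ones: RPS18, a protein of the small ribosomal subunit, had 0 to 5 counts per library, and TUBB, a major beta tubulin, had 5 to 21. GTF2H4, a subunit of the general transcription factor TFIIH, had 0 counts in all 12 libraries. Of 25 housekeeping genes of the MHC, 17 averaged under 10 counts. The median of the 25 was 5.42, and the highest mean was 341.25, for PRRC2A. Of 11 genes around the ULBP cluster only IYD averaged under 10 counts, and their median was 594.5.

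The same genes have further copies in the reference build. GRCh38 holds 261 alternate contigs, with alternate haplotypes of the MHC among them. Exact copies of the 100-base exon windows of MICA were found on alternate contigs for 95.1% of windows, and of MICB for 100%. For ULBP1, ULBP2, RAET1E, RAET1G and RAET1L the share was 0.0%, and for ULBP3 it was 3.71%. PRRC2A, the MHC housekeeping gene with the highest mean count, had a share of 98.95%. Outside the MHC, 332 of 444 protein-coding genes (74.8%) with over 90% of windows on such contigs averaged under 10 counts, against 27.3% of 18555 genes with no such window. Whether the alignment used these contigs, and how reads with several matches were counted, is not given in the sources used here, and their part in the low counts was not tested. The counts of MICA and MICB are for this reason given as listed, and neither absence nor a level of expression is read from them.

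**Figure D2:**
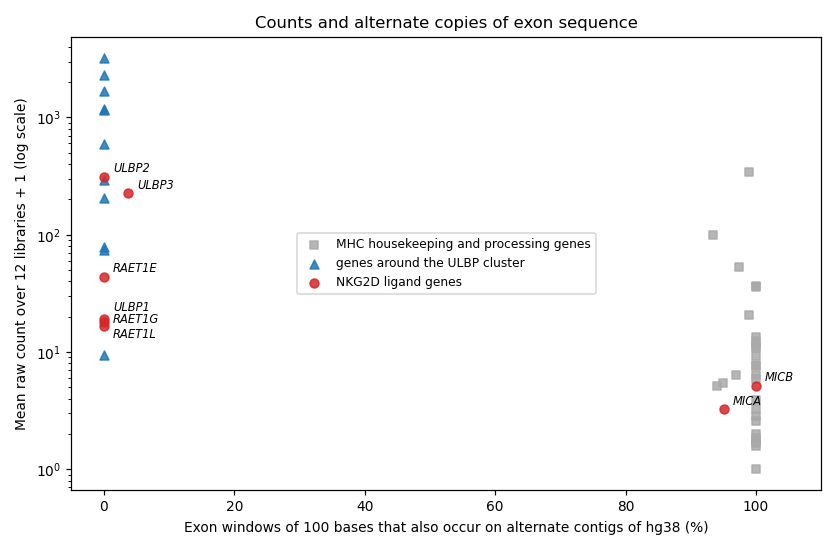
Mean raw count over 12 libraries plus 1 (log axis) against the percent of 100-base exon windows that recur exactly on alternate contigs of the genome build; each point is a gene, with NKG2D ligand genes in red, genes around the ULBP cluster in blue and housekeeping or antigen processing genes of the MHC in grey. MICA and MICB sit with the other MHC genes at 95.1% and 100%, and the ULBP and RAET1 genes sit at or near 0.

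Members of the cluster also share sequence with each other. Of the 100-base windows in ULBP2 transcripts, 11.9% also occur in RAET1L transcripts and 1.78% in RAET1G, so a small share of reads could be split or moved among these members. RAET1E shared no window with another member. RAET1E-AS1 had at most 4 counts per library under each of its 2 identifiers, against 27 to 68 for RAET1E. RAET1K, a pseudogene of the family, had 8 to 42 counts, and it passed no treatment test.

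The combination was first compared with vehicle in EGI-1, the contrast at the centre of the study's question. ULBP2 rose to 2.33-fold of vehicle, and it was the only one of 5 tested members to pass (edgeR's quasi-likelihood test, Benjamini-Hochberg adjusted p under 0.05). Among all 22406 genes tested in this contrast, 18.7% passed in either direction, 11.1% rose and 7.61% fell. ULBP2 had 165 and 153 counts in vehicle and 322 and 378 in the combination, or 5.41 and 5.50 CPM against 13.1 and 12.4 CPM. Both combination libraries lay above both vehicle libraries, as they did for 29.6% of all genes tested. The log2 fold change was 1.22 (SE 0.13, 95% interval of the fold 1.94 to 2.80, adjusted p = 2.48e-06). Without combination replicate 2, the library with leukocyte transcripts, ULBP2 still passed, and over all 4 ways of leaving out a library its log2 fold change was 1.18 to 1.26 with edgeR adjusted p from 8.47e-05 to 3.28e-04.

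The other members gave smaller and less certain differences. ULBP3 had 190 and 158 counts in vehicle and 157 and 255 in the combination, where the second value came from the library with leukocyte transcripts. Its log2 fold change was 0.31 (95% interval -0.0082 to 0.63, edgeR adjusted p = 0.174), and it was 0.094 without that library and up to 0.48 over the other ways of leaving out a library. RAET1E had 27 and 32 counts in vehicle and 36 and 56 in the combination, a log2 fold change of 0.70 (edgeR adjusted p = 0.0863), and of 0.52 without combination replicate 2. ULBP1 pointed the other way, from 31 and 36 counts to 16 and 22, a log2 fold change of -0.74 (edgeR adjusted p = 0.129, unadjusted 0.0359), and of -0.83 without that replicate. RAET1G went from 6 and 5 counts to 13 and 8, and RAET1L from 4 and 3 to 8 and 7, and both were too low to be tested. By CPM, 5 members were higher and 1 was lower in both combination libraries than in both vehicle libraries, where 29.6% and 30.7% of all genes tested were so.

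With each single agent, ULBP2 lay between vehicle and the combination. Decitabine alone gave 208 and 201 counts, or 6.91 and 7.34 CPM. Talazoparib alone gave 8.15 CPM in replicate 1, from 200 counts, and 8.81 CPM in the deeper replicate 2. By CPM, neither arm overlapped vehicle or the combination. Of all genes tested, 19.3% with decitabine and 24.5% with talazoparib were higher than vehicle without overlap. In the combination 24.8% were so against decitabine and 23% against talazoparib. With decitabine 0 of 5 tested members passed by edgeR or by DESeq2, 1 had an unadjusted p under 0.05, and 0.544% of all genes passed. ULBP2 had a log2 fold change of 0.39 (SE 0.13) there, with an unadjusted p of 0.00798 and an edgeR adjusted p of 0.272. RAET1E, at 48 and 38 counts, had a log2 fold change of 0.56 (edgeR adjusted p = 0.577). ULBP3 stayed at 202 and 176 counts and ULBP1 at 31 and 28, with log2 fold changes of 0.15 and -0.16.

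With talazoparib, ULBP2 passed and ULBP3, RAET1E and ULBP1 did not, while 4.12% of all genes passed. ULBP2 rose by a log2 fold change of 0.64 (SE 0.13, 1.56-fold, edgeR adjusted p = 0.00607), but the call was lost without vehicle replicate 1 (adjusted p = 0.107), without vehicle replicate 2 (0.0854) and without talazoparib replicate 2 (0.0831), at log2 fold changes of 0.58 to 0.65. MICB had 20 and 16 counts against 2 and 2 in vehicle. Since it entered the fit only through these talazoparib libraries, its edgeR adjusted p of 0.0490 is not read as a call, and that value was 0.0739 to 0.319 without any one of the 4 libraries. Other MHC genes differed in spread here: the SE of the log2 fold change was 2.21 for BRD2, 0.24 for BAG6 and 0.14 for PRRC2A. BRD2, chosen after its values were seen, had 229 and 13 counts in EGI-1 vehicle and 37 and 430 in HUCCT1 vehicle. The part of such spread in the MICB counts was not tested.

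RAET1E reached its highest EGI-1 level with talazoparib, at 48 and 68 counts or 1.96 and 1.95 CPM, against 0.886 and 1.15 CPM in vehicle. Its log2 fold change of 0.94 (SE 0.27) missed the threshold with an edgeR adjusted p of 0.0600, and it passed at 0.0323 when the fit held only the 2 arms compared. ULBP1 had 16 and 27 counts, a log2 fold change of -0.68 with an edgeR adjusted p of 0.313. ULBP3 had 165 and 226 counts and a log2 fold change of 0.15. RAET1G had 5 and 6 counts and RAET1L 4 and 4, as low as in vehicle.

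The combination was then set against each agent alone. Against decitabine, ULBP2 was the only member called among 5 tested, with a log2 fold change of 0.83 (SE 0.12, edgeR adjusted p = 3.29e-04), where 7.68% of all genes passed. This held when any 1 library was left out. Against talazoparib it was again the only one called, with a log2 fold change of 0.58 (SE 0.12, edgeR adjusted p = 0.0171), where 1.92% of all genes passed. That call was lost without any one of the 4 libraries, with adjusted p of 0.0900 to 0.159 at log2 fold changes of 0.53 to 0.64. These comparisons share libraries with those against vehicle and are not independent of them.

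Whether the arms with both agents lay off the added log2 effects of each was tested directly. For ULBP2 it was 0.19 (SE 0.18), which as a fold is 1.14 with a 95% interval of 0.878 to 1.48. Departures of either sign within that interval are not excluded by these data, with 2 libraries per arm. For RAET1E the departure was -0.80 with an unadjusted p of 0.0484 and an edgeR adjusted p of 1.0. No member passed this test by edgeR or by DESeq2, and 1 had an unadjusted p under 0.05. Of all genes, 0.161% passed.

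**Figure D3:**
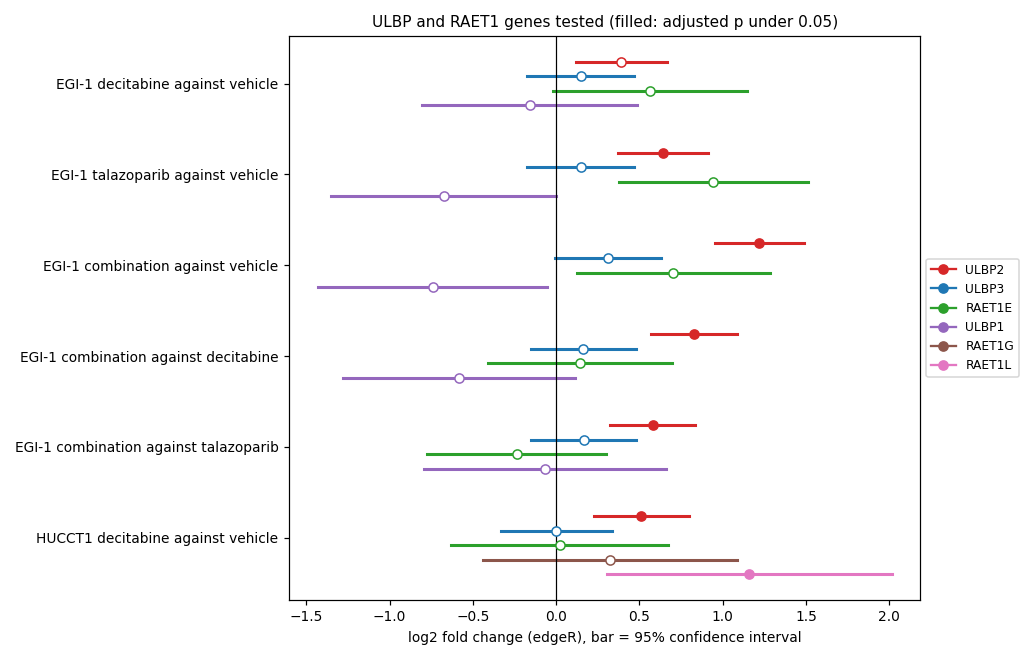
Log2 fold changes of the ULBP and RAET1 genes that were tested, by comparison; points are edgeR estimates, bars are 95% confidence intervals, and filled points passed at an adjusted p under 0.05. ULBP2 is the only gene drawn that is filled in an EGI-1 comparison, at 0.64, 1.22, 0.83 and 0.58 (MICB, with few counts, is not drawn). RAET1L, also filled in HUCCT1, passed the filter there only through its decitabine libraries and is a description.

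In HUCCT1, decitabine was compared with vehicle at 1 μM, a higher dose than the 0.5 μM given to EGI-1. Of 5 tested members ULBP2 rose, and RAET1L is given apart as a description. Of all 22479 genes, 33.5% passed in either direction, 19.6% rose and 13.9% fell. Markers of other cell types moved in the same libraries: 8 fibroblast and endothelial markers summed to 38.2 and 36.2 CPM of the library total in vehicle and to 179.3 and 203.9 after decitabine. COL1A1 led them, from 805 and 896 counts to 5089 and 5611, with DCN at 0 and COL1A2 at 1 in both vehicle libraries. LUM alone of these markers was called lower, at a log2 fold change of -1.05 (edgeR adjusted p = 1.5e-04). The 8 biliary markers went from 13230 and 14350 CPM to 8709 and 9778. Their part in the results was not tested. By CPM, 34.4% of all genes tested were higher and 30.7% were lower without overlap. ULBP2 was among the higher, from 364 and 359 counts to 564 and 492, or from 11.99 and 11.86 to 17.6 and 16.6 CPM. Its log2 fold change was 0.51 (SE 0.14, 1.43-fold, 95% interval 1.17 to 1.74, edgeR adjusted p = 0.00516), and it passed without any 1 of the 4 libraries. RAET1L had 9 and 36 counts in vehicle and 51 and 52 after decitabine. Its log2 fold change was 1.16 (SE 0.41, edgeR adjusted p = 0.0325), but it was 0.48 without the low vehicle replicate 1 and 1.10 without decitabine replicate 2. With a vehicle library at 9 counts, under the minimum of 10, RAET1L passed the filter only through its decitabine libraries. Its adjusted p is therefore a description and is not read as a call.

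ULBP1 was the member of the cluster without a read in HUCCT1 vehicle. It had 0 and 0 counts there and 6 and 4 after decitabine. Against a floor of 3 counts over the vehicle group, this is 3.43-fold higher, a value that leaves out the counting error of the few reads after decitabine. The gene was too low for the main fit, and with no filter its edgeR adjusted p was 0.0620. After decitabine its level of 0.161 ± 0.037 CPM (SD, n = 2) remained below the 1.16 ± 0.20 CPM of EGI-1 vehicle. In EGI-1 it had 31 and 36 counts in vehicle and 31 and 28 with decitabine. The difference in the effect of decitabine between the lines was fitted with all 12 libraries, where 15.9% of all genes passed. ULBP1 entered that fit through its EGI-1 counts and had an edgeR adjusted p of 0.00792, which rests on a group at 0 counts and is given as a description. Dose and line differ together in this contrast and cannot be told apart.

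The other members did not move in HUCCT1 beyond their error. ULBP3 had 304 and 274 counts with vehicle and 335 and 259 with decitabine, a log2 fold change of 0.0016 with a 95% interval of -0.33 to 0.33. RAET1E had 40 and 38 counts against 43 and 38, a log2 fold change of 0.020 with an interval of -0.63 to 0.67. RAET1G had 39 and 26 counts against 58 and 26, so that the arms overlapped. For ULBP2 the effect of decitabine differed between the lines by 0.14 on the log2 scale (95% interval -0.23 to 0.50, edgeR adjusted p = 0.684).

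Untreated, the lines themselves differed in ULBP2 and ULBP3. In HUCCT1 vehicle against EGI-1 vehicle, ULBP2 and ULBP3 passed and RAET1E did not, in a contrast where 55.8% of all 25096 genes passed. ULBP2 was 2.18-fold higher in HUCCT1 (edgeR adjusted p = 1.04e-07) and ULBP3 was 1.60-fold higher (7.28e-04). RAET1G, RAET1L and ULBP1 entered this fit only through the line where they were high, so their values are a description with no test. RAET1G had 39 and 26 counts in HUCCT1 against 6 and 5 in EGI-1. RAET1L had 9 and 36 against 4 and 3, a log2 difference of 2.59 that was 1.28 without HUCCT1 vehicle replicate 2. ULBP1 was 28.0-fold higher in EGI-1 against the floor of 3 counts, from 31 and 36 counts against 0 and 0. RAET1E, at 1.27-fold with a 95% interval of 0.842 to 1.90, did not pass. The library names carry L3 for every HUCCT1 and L4 for every EGI-1 library, so the line and what this label stands for cannot be told apart.

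A fixed list of 11 other genes tied to natural killer cells was then counted. It holds activating ligands and also the death receptors TNFRSF10A, TNFRSF10B and FAS, which are not such ligands. In the EGI-1 combination 5 of 9 tested rose and 0 fell, beside 11.1% and 7.61% of all genes, with a median log2 fold change of 0.22 against -0.025 for all genes. Without combination replicate 2, 4 rose and 0 fell, beside 7.05% and 4.14% of all genes. ICAM1, the ligand of the integrin LFA-1, rose by 1.01 (SE 0.079) from 682 and 598 counts to 1065 and 1379. NCR3LG1, the NKp30 ligand B7-H6, rose by 0.61, and the DNAM-1 ligands PVR and NECTIN2 rose by 0.37 and 0.28. TNFRSF10B, a TRAIL receptor, rose by 0.18 and lost its call without that replicate (edgeR adjusted p = 0.168). With talazoparib alone ICAM1 (0.44) and PVR (0.23) passed, and with decitabine alone ICAM1 (0.69) passed.

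In HUCCT1 with decitabine, 3 of 10 tested members of that list rose and 0 fell, where 19.6% and 13.9% of all genes did. ICAM1 rose by 2.93 on the log2 scale, from 2037 and 2226 counts to 17102 and 16077. TNFRSF10B rose by 0.46, and CD70, the ligand of CD27, went from 0 and 2 counts to 77 and 101. CD70 passed the filter only through the decitabine libraries and counts among these 3 as a description, so the count is not weighed against the 19.6%. NCR3LG1 did not pass there, at -0.30 with an edgeR adjusted p of 0.0523. Inhibitory ligands could be read only in part, since the HLA genes on that list lie in the MHC. Of the listed genes outside it, CDH1 rose by 0.73 and CLEC2D fell by 0.40 in HUCCT1 with decitabine, and CEACAM1 did not pass (edgeR adjusted p = 0.105). In the EGI-1 combination, where 11.1% of all genes rose and 7.61% fell, CEACAM1 rose by 1.28, and it rose by 0.91 with talazoparib. CDH1 (0.047) and CLEC2D (-0.38) did not pass in the combination, and CLEC2D was at -0.71 without combination replicate 2. HLA-B also passed in the combination, at 18 and 56 counts against 1 and 12, where the higher value came from the library with leukocyte transcripts, and it did not pass without that library (edgeR adjusted p = 0.240).

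Genes that act on ligand shedding were counted next. ADAM10, ADAM17 and MMP14 are membrane proteases that can release these ligands. In the EGI-1 combination 3 of 8 rose and 1 fell, beside 11.1% and 7.61% of all genes, and without combination replicate 2 these were 2 and 1 (MMP9 lost, edgeR adjusted p = 0.0871). MMP14 rose by 0.73 (SE 0.058) on the log2 scale from 3794 and 3376 counts to 5051 and 6188, and ADAM17 fell by 0.22. The other risers were low, MMP2 from 4 and 4 counts to 22 and 20 and MMP9 from 10 and 5 to 20 and 20. Neither would pass the filter by its vehicle libraries alone, so as risers they are a description. This leaves MMP14 as the riser that is read, and nothing is read from the count of 3 beside the 11.1%. In HUCCT1 with decitabine 3 of 8 rose and 1 fell, beside 19.6% and 13.9% of all genes. TIMP3, an inhibitor of ADAM17, went from 0 and 1 counts to 706 and 661. MMP2 went from 10 and 17 counts to 203 and 245, MMP9 from 3 and 2 to 11 and 21, and ADAM10 fell by 0.42. TIMP3 and MMP9 passed the filter only through the decitabine libraries, so as risers they are a description. This leaves MMP2 as the riser that is read, and the count of 3 is not weighed against the 19.6%.

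**Figure D4:**
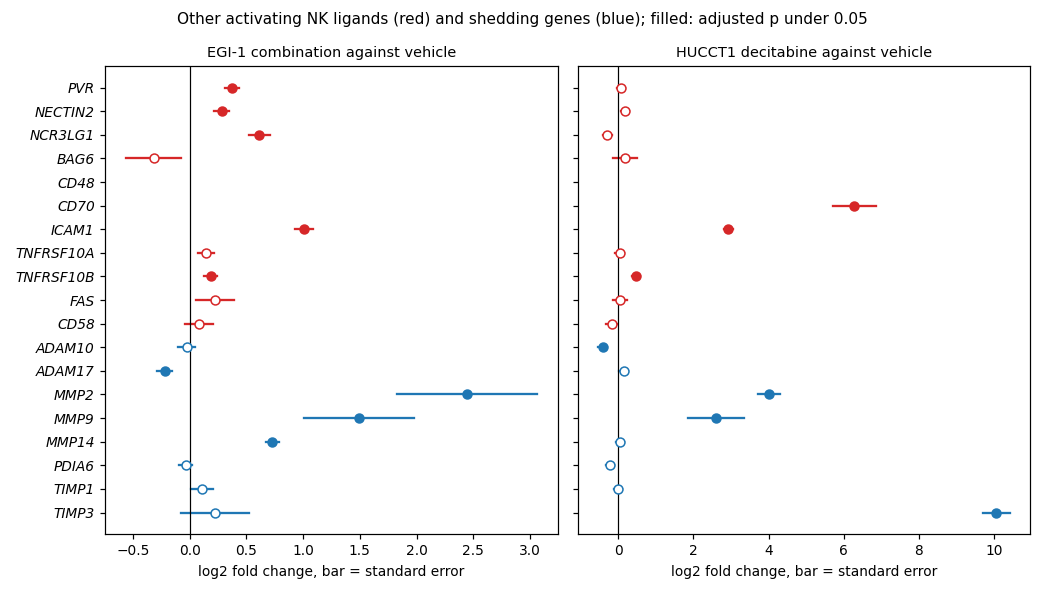
Log2 fold changes (edgeR, bars are standard errors, filled points passed at an adjusted p under 0.05) for 2 comparisons with separate horizontal scales. Red marks the list of other activating ligands of natural killer cells, which also holds death receptors, and blue marks shedding genes. A gene with no point was too low to be tested. ICAM1 is filled in both panels at 1.01 and 2.93, MMP14 is filled for the EGI-1 combination at 0.73, and TIMP3 reaches 10.06 in HUCCT1 from 0 and 1 counts. Filled points of MMP2 and MMP9 in EGI-1 and of TIMP3, MMP9 and CD70 in HUCCT1 are descriptions, since their vehicle counts failed the filter.

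Of 10 transcription factors known to act at NKG2D ligand genes, 1 rose and 5 fell in the EGI-1 combination, beside 11.1% and 7.61% of all genes, and 1 rose and 4 fell without combination replicate 2 (E2F1 lost, edgeR adjusted p = 0.144). MYC rose by 0.51, while SP1 (-0.60), SP3 (-0.41), E2F1 (-0.34), E2F2 (-0.72) and ATF4 (-0.29) were lower on the log2 scale. In HUCCT1 with decitabine 2 were higher (MYC 0.50, NFKB1 0.51) and 3 were lower (E2F1 -0.32, E2F2 -0.40, SP1 -0.28), beside 19.6% and 13.9% of all genes. Of 9 chromatin repressors, 2 rose and 2 fell in the EGI-1 combination, with and without its replicate 2: DNMT3B (0.43) and HDAC1 (0.25) against UHRF1 (-0.38) and EZH2 (-0.50), beside 11.1% and 7.61% of all genes. In HUCCT1 DNMT3B rose by 0.57, and UHRF1 (-0.71), HDAC1 (-0.45), EZH2 (-0.33) and DNMT1 (-0.31) fell, beside 19.6% and 13.9% of all genes. Of 8 genes of the DNA damage kinase pathway, which is known to raise NKG2D ligands, 1 fell in the EGI-1 combination (CHEK1, -0.30), and 6 fell in HUCCT1 with decitabine, led by ATR at -0.54, where 7.61% and 13.9% of all genes fell. These are transcript levels and say nothing of kinase activity.

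Genes whose pattern most resembled ULBP2 over the 8 EGI-1 libraries were sought by Pearson's r of log2 CPM among 13707 genes. They were ZDHHC9 (0.996), a palmitoyltransferase, KCTD21 (0.996), NXN (0.995), the oxidoreductase nucleoredoxin, NRBP2 (0.993) and CD24 (0.993), a lipid-anchored surface glycoprotein. The points share 4 treatment arms, and the values are a description of these libraries. In HUCCT1 with decitabine ZDHHC9 and NRBP2 rose by 0.55 and 0.56, as ULBP2 rose by 0.51, whereas NXN (-0.33) and CD24 (-0.49) fell (edgeR adjusted p = 0.0206 and 6.96e-04). KCTD21 did not pass there (edgeR adjusted p = 0.477).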

How the data were processed

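RNA sequencing of 12 libraries of 2 established cell lines was analysed. The authors deposited 1 table of raw counts per gene, without normalization. The submitters' processing notes name fastp, Trim Galore, HISAT2, featureCounts and GRCh38, whereas the methods of the study name fastp, STAR and RSEM, and strand use, annotation and the treatment of reads with several matches are not given in the sources used here. Labels and methods also differ on RNA isolation, and the names of talazoparib libraries carry another number than the 200 nM of the labels. Nothing says that replicates were separate cultures, so p-values measure only the spread between these libraries.

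Genes were filtered by filterByExpr (minimum count 10), scaled by TMM and fitted with edgeR 4.0.16 (robust quasi-likelihood, R 4.3.3), with all 8 EGI-1 libraries in one fit (22406 genes), the 4 HUCCT1 libraries in another (22479) and all 12 for contrasts between lines (25096). P-values were Benjamini-Hochberg adjusted over all genes tested, and a call is an adjusted p under 0.05. Levels are CPM with TMM factors over 12 libraries. A count of 0 was bounded with 3 counts over a group, which covers the counting error of that group only. The scripts were tested on simulated data. Exon windows of 100 bases were matched exactly against GRCh38, and promoters are RefSeq's. Of 60651 identifiers, 60481 matched a symbol. An exact permutation test of 2 against 2 libraries cannot go below p = 0.333 and was not used. Replicates of a group differed by more than sampling noise (chi-square per gene 2.56 to 11.1), so no library was merged. Members and gene lists were chosen with earlier results of these data known. All members are named; of each list, its called genes and its 3 most abundant genes could be named, and BRD2, RPS18, TUBB and GTF2H4 were chosen after their values were seen. Likeness to ULBP2 was taken over genes with a mean log2 CPM of at least 1. Alternatives were other scalings, no filter, DESeq2 1.42.0, replicate blocks, fits of the compared arms only and leaving out each library. Counts by list without EGI-1 combination replicate 2 were added after seeing the data.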

Additional observations from a re-analysis of the deposited data

Results flagged for a closer look

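For ULBP1, the test of the difference in the effect of decitabine between the lines gave an edgeR adjusted p of 0.00792. That value is given as a description and is not read as a call. The dose of decitabine also differed between the lines, so dose and line cannot be told apart here. Counts were 0 and 0 with vehicle and 6 and 4 with decitabine in HUCCT1, against 31 and 36 with vehicle and 31 and 28 with decitabine in EGI-1. No fold is read from this test, since 1 group is at 0 counts, and ULBP1 entered the fit through its EGI-1 counts. In HUCCT1 alone, with no filter, its edgeR adjusted p was 0.0620.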

How the results depend on the processing

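With 2 libraries per arm, counts under 10 limit MICA in both lines, RAET1G and RAET1L in EGI-1, ULBP1 in HUCCT1, and MICB outside the talazoparib arm. Raising the floor from 3 to 10 counts puts 1 member (MICA), not 0, at or below it in every library. ULBP2 kept its direction under every alternative run in each comparison, and its calls for the combination against vehicle and against decitabine, for HUCCT1 decitabine and for the vehicles held in all of them. Where a call changed, the cause was not tested beyond the smaller number of libraries in leave-one-out fits. Same-numbered replicates correlated at -0.0684 to 0.0572 in EGI-1. In HUCCT1 the value was 0.109, from 2 numbers only, and the replicate block by title number raised the genes called from 7525 to 10136 with no change in the members called. The labels give no shared source for a number.

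Genes called changed as follows. Decitabine against vehicle in EGI-1 gave 122, against 335 with no filter, 60 with a replicate block by title number, 75 with a replicate block by library series and 43 with only the arms compared. Talazoparib against vehicle gave 923, against 1851 with only the arms compared. The combination against decitabine gave 1720, against 963 with only the arms compared. The combination against talazoparib gave 431, against 897 with no filter, 249 with the replicate block by title number and 700 with only the arms compared. Departure from the sum gave 36, against 71 with no filter. Upper-quartile factors turned the share of higher calls in the combination against vehicle from 59.3% to 49.2%. With no filter the share for the difference between lines fell from 54.8% to 44.6%, and under the same factors the median log2 fold change between the vehicles was -0.13.

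Leave-one-out counts were 1938 to 2715 for the combination against vehicle (4194), 22 to 402 for decitabine, 257 to 520 for talazoparib, 801 to 2556 for the combination against decitabine, 116 to 279 against talazoparib, 26 to 89 for the departure from the sum and 2561 to 3808 for the difference between lines (4000).

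MICB is not read as a call, and its values are listed here only as a description. With talazoparib, members under the threshold, MICB included, fell from 2 to 1 under upper-quartile factors and the replicate block by title number. MICB had edgeR adjusted p of 0.0521 and 0.0527 there. Under DESeq2, which gave MICB no adjusted p, 1 member was under the threshold. Against talazoparib, 2 members of the combination were under the threshold with no filter, ULBP2 and, as a description, MICB at -2.70 (edgeR adjusted p = 0.0297). HUCCT1 members under the threshold, with RAET1L as a description, fell from 2 to 1 under DESeq2 (RAET1L, adjusted p = 0.129). The replicate block moved no other member across the threshold.

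Directions that turned were all of uncalled differences. MICB with decitabine in EGI-1 (0.022) became -0.0069 under upper-quartile factors, -0.0071 under the title block and -0.047 under the series block, and ULBP3 in HUCCT1 (0.0016) became -0.013 with no filter and -0.0020 under the title block. In leave-one-out fits, MICB ranged from -4.10 to 1.50 (combination against vehicle), -0.83 to 0.52 (decitabine), -4.12 to 1.49 (combination against decitabine) and -0.014 to 3.13 (between lines). ULBP1 ranged from -0.32 to 0.018 (decitabine), -0.16 to 0.073 (combination against talazoparib) and -0.084 to 0.26 (departure from the sum). ULBP3 ranged from -0.049 to 0.34 and -0.044 to 0.35 (combination against decitabine and talazoparib), -0.19 to 0.20 (departure) and -0.14 to 0.13 (HUCCT1). RAET1E ranged from -0.036 to 0.29 (combination against decitabine) and -0.031 to 0.057 (HUCCT1), and RAET1G from -0.30 to 0.75 (HUCCT1) and -0.53 to 1.09 (between lines).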
